A study of Mus musculus with 10 samples.

Results

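Genes of the splicing machinery and of the RNA helicase families were examined in cultured mouse cortical neurons with and without Fmr1. They were chosen by symbol from the deposited table of RNA metabolic rates: names starting with Snrp, Snrnp, Sf3a, Sf3b, Srsf, Prpf, Hnrnp, U2af, Ddx, Dhx or Rbm, without the sex chromosome pair Ddx3x and Ddx3y. The rule found 122 of the 8590 genes in the table. They are 17 genes for proteins of small nuclear ribonucleoproteins (snRNPs), 5 for subunits of SF3a and SF3b, 12 Prpf genes, 2 of the U2af family and 9 for SR proteins. A further 12 encode hnRNP proteins, 26 are Rbm genes, 25 are Ddx (DEAD-box) genes and 14 are Dhx (DEAH-box) genes. The rule reads names only, so some members serve ribosome assembly, translation or RNA decay and not splicing. Of 45 well known genes of these families listed for naming, 30 were in the table; Srsf2, U2af2, Prpf8, Ddx5, Dhx9 and Rbm39 are among the 15 not analysed here.

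The study labelled new RNA with 5-ethynyluridine (5-EU), a uridine analogue that can be coupled to biotin and pulled down, for 20 or 60 min. The 2 groups were wild-type and Fmr1-knockout neurons, both of the strain given as FVB.129P2-Pde6b+ Tyrc-ch/AntJ, taken from the cortex at embryonic day 18 and kept 14 days in vitro. Each genotype had 1 labelled library per labelling time, and these 4 libraries hold the rates used here. The labels do not say whether libraries of a genotype came from separate cultures or embryos, so p-values measure the spread between 2 libraries that also differ in labelling time. Fmr1 encodes FMRP, an RNA-binding protein lost in fragile X syndrome.

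Introns are removed by the spliceosome, in which U1 and U2 snRNPs mark the ends of the intron and the U4/U6.U5 tri-snRNP is then remodelled into an active enzyme. DEAD- and DEAH-box helicases drive these steps by unwinding RNA or displacing proteins. SR proteins mostly favour and hnRNP proteins often oppose the use of nearby splice sites, and many of their genes control their own output through alternative exons or retained introns. In neurons, FMRP is known mainly as a regulator of translation.

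Per gene and library, the table lists a synthesis rate (new transcript made), a processing rate (precursor, or pre-mRNA, turned into mature RNA) and a degradation rate (mature RNA lost), named for the INSPEcT method. Neither labels nor headers give a time unit, so rates are printed in the units of the table. It is also not stated whether synthesis rates are scaled by gene length, which limits comparison of synthesis rates and RNA levels between genes. Processing and degradation rates stand for fractions turned over, in which a scaling shared by synthesis rate and level would cancel. Whether the scaling is shared is not stated. The table gives no read counts, and the depth of each rate is unknown. For Fmr1 itself, synthesis rates were 0.810 and 0.692 in wild type at 20 and 60 min, and 2.06 and 1.56 in the libraries labelled knockout, so the synthesis rate was not lower there. Its degradation rates were 0.0774 and 0.0672 in the former and 2.58 and 2.66 in the latter. Of 13 neuronal markers 5 were in the table, of 9 astrocyte markers 4, of 8 oligodendrocyte lineage markers 5, and of 8 microglial and 4 vascular markers 0. Rates do not give the share of a cell type, and in such bulk samples fewer cells of a type and less RNA per cell cannot be told apart.

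Promoters are shown for the ends of the wild-type synthesis range, since transcription starts there. RefSeq (GRCm38.p6) held promoters of 250 bases before to 50 after the start for 107 of the 122 genes, and 1 promoter alone for 89. Of these, the first 3 below had the highest and the last 3 the lowest synthesis rates in wild type. Capitals mark matches to any of 5 motifs searched on both strands. They are TATAAA for the TATA box, the 5 letters of the CCAAT box, GGGCGG for the GC box, CCGGAAG for the core bound by ETS factors, and the palindromic motif of the factor NRF1.
Rbm15b, chr9:106887026-106887325, minus strand: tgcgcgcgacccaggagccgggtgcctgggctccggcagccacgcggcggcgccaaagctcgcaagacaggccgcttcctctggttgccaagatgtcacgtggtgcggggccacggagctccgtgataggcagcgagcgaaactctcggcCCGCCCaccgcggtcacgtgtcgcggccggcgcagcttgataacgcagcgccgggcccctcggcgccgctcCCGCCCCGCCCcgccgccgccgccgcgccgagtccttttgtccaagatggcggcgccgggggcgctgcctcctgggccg
Srsf3, chr17:29032410-29032709, plus strand: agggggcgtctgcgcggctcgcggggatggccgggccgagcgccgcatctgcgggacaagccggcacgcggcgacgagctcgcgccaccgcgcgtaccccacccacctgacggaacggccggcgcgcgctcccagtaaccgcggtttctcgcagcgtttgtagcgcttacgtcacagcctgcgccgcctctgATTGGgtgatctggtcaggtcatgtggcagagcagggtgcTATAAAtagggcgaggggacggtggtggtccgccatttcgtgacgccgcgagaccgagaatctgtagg
Ddx28, chr8:106011437-106011736, minus strand: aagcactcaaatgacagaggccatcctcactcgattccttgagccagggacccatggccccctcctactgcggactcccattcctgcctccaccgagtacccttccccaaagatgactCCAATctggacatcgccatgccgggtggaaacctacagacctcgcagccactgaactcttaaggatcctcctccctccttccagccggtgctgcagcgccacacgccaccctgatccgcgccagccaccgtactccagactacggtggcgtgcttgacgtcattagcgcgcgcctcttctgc
Dhx29, chr13:112927430-112927729, plus strand: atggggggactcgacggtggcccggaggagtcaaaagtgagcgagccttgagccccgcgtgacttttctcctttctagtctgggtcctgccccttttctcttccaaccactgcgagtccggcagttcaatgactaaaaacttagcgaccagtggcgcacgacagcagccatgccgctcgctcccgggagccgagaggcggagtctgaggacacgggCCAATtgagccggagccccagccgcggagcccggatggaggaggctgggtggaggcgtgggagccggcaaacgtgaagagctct
Prpf31, chr7:3629735-3630034, plus strand: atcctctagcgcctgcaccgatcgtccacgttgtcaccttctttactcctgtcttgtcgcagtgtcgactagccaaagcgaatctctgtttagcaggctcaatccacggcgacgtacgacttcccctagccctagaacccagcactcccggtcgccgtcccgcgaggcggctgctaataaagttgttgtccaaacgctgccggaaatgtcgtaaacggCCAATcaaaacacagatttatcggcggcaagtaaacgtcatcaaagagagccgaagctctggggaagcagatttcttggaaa
Ddx59, chr1:136415021-136415320, plus strand: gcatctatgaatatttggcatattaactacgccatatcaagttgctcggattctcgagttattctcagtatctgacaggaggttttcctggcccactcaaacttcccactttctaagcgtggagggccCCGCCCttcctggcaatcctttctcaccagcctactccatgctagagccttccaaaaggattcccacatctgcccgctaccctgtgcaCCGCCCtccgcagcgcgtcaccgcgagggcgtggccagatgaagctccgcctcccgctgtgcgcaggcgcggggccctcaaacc

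The 89 promoters were rich in CG dinucleotides, with a median of 24 against 7 over 32851 mouse promoters of the same length. No such median was taken over promoters of the rate table, so this does not set these genes apart from other genes in it. The GC box was present in 64.0% of them, against 35.7% of all promoters and 70.7% of the 5225 single promoters of genes in the rate table. For the ETS core the shares were 30.3%, 8.86% and 21.4%, for the CCAAT box 39.3%, 37.4% and 39.0%, for the TATA box 4.49%, 13.6% and 5.63%, and for the NRF1 motif 1.12%, 0.971% and 2.37%. Except for the NRF1 motif, these shares lay nearer to those of the rate table than to those of all promoters. GC boxes were present both in Rbm15b, at the top of the synthesis range, and in Ddx59, at the bottom. A match is a run of letters and not a mapped binding site.

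In wild-type neurons, the median over all these genes was near that of the table for synthesis, lower for processing and higher for degradation, with families that went the other way. Values per gene are geometric means of the 20 and 60 min libraries. The median synthesis rate was 1.04 (n = 110 with both wild-type rates) against 1.03 over 7914 genes. The median processing rate was 5.38 (n = 100) against 7.26 over 7055 genes, and 63 of the 100 lay below the median of all genes. Degradation had a median of 0.138 (n = 110) against 0.110, with 45 of 110 below it. No p-value is given, since genes are not replicates. The median SD between the labelling times of wild type was 0.46 log2 units for the synthesis, 0.47 for the processing and 0.46 for the degradation rates of these genes.

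**Figure D1:**
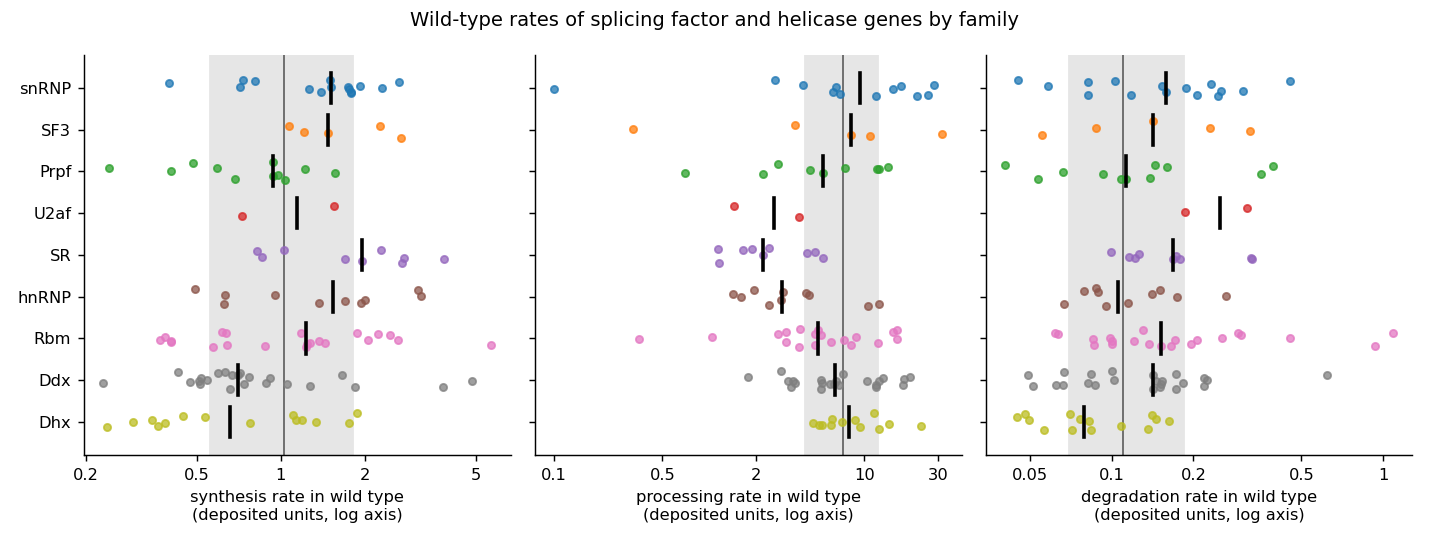
Wild-type synthesis, processing and degradation rates (deposited units, log axes) of each gene, by family; a point is the geometric mean of the 20 and 60 min libraries and the black bar is the family median. The grey band spans the middle 50% of all genes and the grey line is their median; SR protein genes lie at the low end for processing, with a median of 2.23.

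SR protein genes stood at the slow end of processing. All 9 lay below the all-gene median of 7.26, and 6 were among the lowest 25% of all genes; the family median was 2.23. Srsf5, whose product is an SR splicing activator, had processing rates of 1.74 at 20 min and 0.746 at 60 min. Srsf6 had 1.48 and 0.892, and Srsf7, an adaptor for mRNA export, 1.76 and 1.56. Even the fastest of the family, Srsf12, had 5.47 and 5.34. Their synthesis rates were high, with a median of 1.96 and 5 of 9 among the highest 25%, led by Srsf3 at 4.66 and 3.18. Srsf3 and Srsf10 were also among the faster degraded, at 0.393 and 0.268 for Srsf3 and 0.353 and 0.308 for Srsf10.

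The hnRNP genes were processed almost as slowly, with a median of 2.96 and 8 of 10 below the all-gene median. Hnrnpdl had processing rates of 1.81 and 1.11, and Hnrnph1, a G-tract binding splicing regulator, 2.39 and 1.06. The genes above it were Hnrnpul1, at 17.5 and 8.76, and Hnrnpul2, at 11.99 and 9.40. Degradation rates of hnRNP genes were near those of all genes (median 0.105), from Hnrnph1 at 0.0999 and 0.0445 to Hnrnpf at 0.332 and 0.210. The U2af genes also processed slowly. U2af1, which reads the AG at the 3′ splice site, had 5.45 and 2.62, and its relative U2af1l4 had 3.59 and 0.580, values that differ between the labelling times by more than most.

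The core snRNP and SF3 genes spread over the whole processing range. Snrnp40, a U5 protein, was processed at 27.2 and 29.2, and Snrnp200, the helicase that unwinds U4 from U6, at 29.98 and 22.4. Sf3a1, a U2 snRNP subunit at the branch point, had the highest value of all 100 genes, 22.6 and 44.7. At the other end stood Snrpb, a Sm ring protein, with 0.0879 and 0.114, and the SF3b subunit Sf3b4 with 0.315 and 0.333. For Snrpb the ratio of synthesis to processing rate, which stands for the pre-mRNA level, was 26.4, above its mature level of 17.3 (synthesis over degradation rate). For Sf3b4 these levels were 6.99 and 7.01. Among the snRNP genes, Snrnp200 had the lowest degradation rate (0.0524 and 0.0392) and the minor spliceosome gene Snrnp48 the highest (0.488 and 0.419).

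Of the 9 families, the Ddx and Dhx genes had the lowest median synthesis rates, and the DEAH-box genes also the lowest median degradation rate. Median synthesis rates were 0.702 for Ddx and 0.656 for Dhx genes, and 7 of 23 and 7 of 14 were among the lowest 25%. Ddx6, a decapping and translational repression factor, had the highest mean of its family, at 3.54 and 6.70. Ddx28, a mitochondrial helicase whose model has no intron and overlaps Dus2, was next at 4.32 and 3.36, above Ddx6 at 20 min, and Ddx59 was lowest at 0.207 and 0.259. The Dhx median degradation rate was 0.0793, and 0 of 14 were among the highest 25%. Dhx16, the mouse counterpart of yeast Prp2, was degraded at 0.0408 and 0.0487, the lowest of its family, and Dhx33 at 0.146 and 0.181, the highest. Processing of Dhx genes was near that of all genes (median 7.96), with Dhx8, which releases the spliced mRNA, fastest at 18.4 and 29.4.

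The Prpf and Rbm genes covered wide ranges. Prpf40b, a U1-associated factor, had the lowest degradation rate of all 110 genes (0.0727 and 0.0224), while Prpf3 of the U4/U6 snRNP had 0.436 and 0.355. Prpf31, also of U4/U6, was transcribed at 0.293 and 0.201 and processed at 0.848 and 0.583, both low. Prpf19, the ubiquitin ligase of the complex named for it, had 18.3 and 10.9 for processing and 0.0693 and 0.0415 for degradation. Rbm15 and Rbm15b, adaptors of the m6A methyltransferase, differed from each other: Rbm15 was degraded at 0.893 and 1.33, the highest of all, and Rbm15b at 0.190 and 0.153. The synthesis rate of Rbm15b, at 6.34 and 5.11, was the highest of all 110; its model overlaps Dcaf1 and Manf. Rbm48, a minor intron splicing factor, was also turned over fast, at 0.622 and 1.41.

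Wild-type degradation followed intron number more closely than the other gene features measured. From GENCODE M21 models (GRCm38), these genes had 0 to 44 introns, with a median of 11 against 8 over the table. Spearman rho between the number of introns and the degradation rate was -0.577 over 110 genes and -0.418 over 7682 genes. For total intron length and processing rate, rho was 0.404 over 100 genes and 0.246 over 6941 genes. These are descriptions across genes that share libraries, and carry no p-value. In 28 of the 122 genes the model overlapped another protein-coding gene, and it is not stated whether reads were counted by strand.

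Genotypes were compared with limma on log2 rates over all genes with 4 rates above 0, and a gene is called where the Benjamini-Hochberg adjusted p is under 0.05. Knockout estimates were often missing. Of the 110 genes with a degradation rate in both wild-type libraries, 28 (25.5%) lacked one in both knockout libraries, against 1546 of 7914 (19.5%) over the table. These include Ddx46, Dhx15, Prpf6, Rbm25, Snrpa and Srsf5. Another 9, among them Hnrnpa1, Hnrnpa3, Snrpd2 and Snrpn, had no rate in any library. The fits therefore covered 75 of the 122 for degradation, 76 for synthesis and 68 for processing.

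Synthesis rates showed no called change. Of the 76 genes tested, 0 were called by limma, as were 0% of the 5794 genes tested (background), and 0 of the 76 and 18 of all genes reached an unadjusted p below 0.05. In the fit blocked by labelling time the count stayed at 0, with 2 and 266 below that unadjusted value. Their median log2 change was 0.06, against -0.03 over all genes, and 33 of the 76 had opposite signs at the 2 labelling times. The extremes were Dhx34, a nonsense-mediated decay helicase, at -0.61 (SE 0.69) and Ddx20, a helicase of the SMN complex that assembles snRNPs, at 0.96 (SE 0.64). Wild-type synthesis rates of Ddx20 were 0.399 and 1.12 and knockout rates 0.998 and 1.69, so the genotypes overlapped. For the SR gene Srsf7 wild-type rates were 2.07 and 1.85 and knockout rates 3.80 and 2.36, which did not overlap (log2 change 0.61, SE 0.44, limma adjusted p = 1.00).

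**Figure D2:**
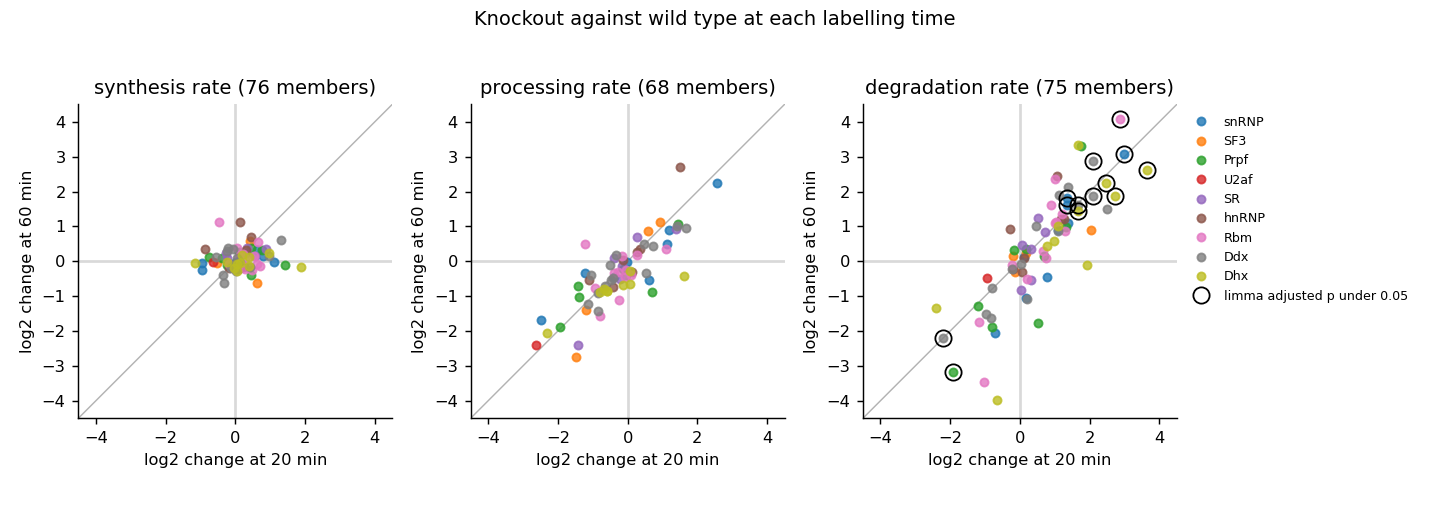
Log2 change, knockout over wild type, at 20 min (x axis) and 60 min (y axis) for each gene with 4 rates, coloured by family; the line marks equal change and rings mark genes called by limma. Synthesis changes centre on 0 (median 0.06), processing changes lean below 0 (median -0.27) and degradation changes lean above 0 (median 0.48); with each library centred on its median, these last 2 medians become 0.07 and -0.38.

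Degradation rates as deposited were higher in the knockout for 11 of the 75 genes tested and lower for 2, so 13 were called (17.3%). Over all 5716 genes tested 23.1% were called, 20.5% higher and 2.57% lower. The share of these genes was thus lower in this fit, but not in the blocked fit, and 44.0% of them against 43.1% of all genes were below 0.05 unadjusted. Their median log2 change was 0.48, against 0.65 over all genes, and 49 of the 75 were above 0, as were 68.1% of all genes tested. These counts leave out genes that lack a knockout rate at a labelling time. Of those with one at 20 min only, 406 of 423 over the table had a higher solved RNA level (below), as had the 2 called falls. The part of this filter in the direction of the calls was not tested. Both knockout values exceeded both wild-type values in 38 of the 75, where the same held for 52.6% of all genes tested. Blocking by labelling time gave 39 calls (52.0%), 31 higher and 8 lower, against a background of 48% (38.2% and 9.76%). Whether rises or falls were more frequent changed with the scaling of the libraries. When each library was centred on its median, a shift of 0.86 log2 units was taken out. The median of the 75 was then -0.38 and 1 gene was called, Ddx10, which was lower (background 1.61%, with 0.56% higher and 1.05% lower). Quantile normalization gave a median of -0.21 with 1 gene higher and 4 lower, against 10.4% of all genes (6.3% higher and 4.13% lower). Blocking together with centring called 22, 7 higher and 15 lower, against 36.2% (13.9% higher and 22.4% lower). The 13 called genes kept their directions under these scalings. Without the lowest 25% of rates 18 of 60 were called, 17 higher and 1 lower, against 32.1% (30.1% and 1.98%). With a pseudocount of 0.0462 (the 10th percentile of rates) 23 were called, 20 higher and 3 lower, against 33.2% (28.9% and 4.3%). With knockout rates taken over RNA levels solved from the deposited rates, an alternative chosen after seeing the data, 0 of the 75 were called. The authors' deposited table called 25 of 82, 20 higher and 5 lower, against 36.3% (29.2% and 7.09%).

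The largest called rise was in Rbm10 (chromosome X, 20617503 to 20650901, plus strand), a regulator of exon skipping. Its degradation rates were 0.105 and 0.0384 in wild type at 20 and 60 min, and reached 0.769 and 0.656 in knockout neurons (log2 change 3.49, SE 0.59, limma adjusted p = 0.0281). The knockout values lay above both wild-type values by a wide margin, although the wild-type values differed from each other. Over the solved level its change was 0.60 and it was not called. The gene model of Rbm10 overlaps Ndufb11. Snrpc, the U1 protein that helps U1 hold the 5′ splice site (chromosome 17, 27838150 to 27851968, plus strand), went from 0.0586 and 0.0578 to 0.462 and 0.487 (log2 change 3.03, SE 0.31, limma adjusted p = 0.0235). Its deposited values within a genotype were nearly equal, but both knockout values hold the same level term (described below). Their closeness is therefore not agreement of separate measurements. Over the solved level the change was -0.09.

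Ddx and Dhx genes made up 7 of the 11 called rises. Of 26 Ddx and Dhx genes tested, 8 were called (30.8%, against 23.1% of all genes), 4 of 15 Ddx genes (3 higher, 1 lower) and 4 of 11 Dhx genes (all higher). Blocking by labelling time called 17 of the 26 (65.4%, against 48%), 13 higher and 4 lower. Dhx40 went from 0.0487 and 0.105 in wild type to 0.608 and 0.651 in the knockout (log2 change 3.13, SE 0.49, limma adjusted p = 0.0256). Dhx16, which acts before the first catalytic step of splicing, went from 0.0408 and 0.0487 to 0.226 and 0.230, a change of 2.36 (SE 0.32). Dhx38, the counterpart of yeast Prp16 that acts between the steps, went from 0.0493 and 0.0999 to 0.325 and 0.363, a change of 2.29 (SE 0.47). In each of these genes both deposited knockout values lay above both wild-type values, as the choice of called genes favours. Over the solved level the changes were 1.16 for Dhx40, 0.22 for Dhx16 and 0.22 for Dhx38, none of them called by limma.

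Among the DEAD-box genes, Ddx27, a ribosome assembly helicase, went from 0.0874 and 0.0509 to 0.377 and 0.370, a log2 change of 2.48 (SE 0.41). Ddx59 went from 0.0897 and 0.112 to 0.381 and 0.414, a change of 1.98 (SE 0.33). Ddx42, an SF3b-associated helicase, went from 0.0818 and 0.0815 to 0.257 and 0.2495, a change of 1.63 (SE 0.31). The remaining called rises were in the Sm ring gene Snrpd3 (1.58), Dhx37, a helicase of the small ribosomal subunit pathway (1.55), and Snrnp200 (1.48). Over the solved level, where none of these 6 genes was called, the changes were 0.18 for Ddx27, 0.41 for Ddx59, 0.28 for Ddx42, -0.27 for Snrpd3, 0.34 for Dhx37 and 0.02 for Snrnp200. Limma adjusted p-values of the 11 ranged from 0.0235 for Snrpc and Dhx16 to 0.0482 for Snrnp200. Whether Ddx and Dhx genes differ from the other families was not tested.

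The 2 called falls were in Prpf18 and Ddx10. Prpf18, a factor of the second splicing step, went from 0.154 and 0.166 to 0.0409 and 0.0185 (log2 change -2.54, SE 0.50, limma adjusted p = 0.0351). Ddx10, a nucleolar ribosome assembly helicase, went from 0.167 and 0.178 to 0.0365 and 0.0386, a change of -2.20 (SE 0.31, limma adjusted p = 0.0235). Both deposited knockout values of each gene lay below both wild-type values, which the choice of called genes also favours. Over the solved level the change was -0.19 in each, and neither was called.

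Without the block, none of 6 SR, 7 hnRNP, 4 SF3 or 1 U2af genes was called, against 23.1% of all genes. Blocking by labelling time called 3 of the 7 hnRNP genes (Hnrnpc, Hnrnpf and Hnrnph3) and 1 of the 4 SF3 genes (Sf3a2), all higher, against 48% of all genes, and 0 of the SR and U2af genes. Srsf3 had degradation rates of 0.393 and 0.268 against 0.489 and 0.343 in the knockout, which overlap, with a log2 change of 0.34 (SE 0.40). Srsf6 had 0.158 and 0.0948 against 0.262 and 0.169, a change of 0.78 (SE 0.45). Hnrnpc, which coats pre-mRNA, had 0.166 and 0.182 against 0.399 and 0.421, a change of 1.24 (SE 0.32, limma adjusted p = 0.0563, and 0.0292 with the block). Sf3b1, the SF3b scaffold, had 0.110 and 0.0693 against 0.124 and 0.0810, a change of 0.20 (SE 0.44). The values of Hnrnpc did not overlap, and those of Sf3b1 did.

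The deposited knockout rates carry a term that the wild-type rates do not. In wild type, synthesis over degradation rate was the same at 20 and 60 min within 0.001 log2 units in 103 of 110 genes, so both libraries rest on 1 mature RNA level per gene. In the knockout this held for 0 of 76 genes. The knockout rates followed a second relation: synthesis rate equalled degradation rate times the knockout mature level, plus the knockout minus wild-type difference of the mature level and that of the pre-mRNA level. For processing, synthesis rate equalled processing rate times the knockout pre-mRNA level plus the difference of the pre-mRNA level. Solved for the knockout level, this gave the same pre-mRNA and mature levels at 20 and 60 min within 0.001 log2 units in 68 of 68 of these genes with 4 processing rates, and in 5082 of 5082 over the table. Over all genes with 4 degradation rates, the mature level met this tolerance in 71 of the 75 and in 5344 of 5716. The relation was found by inspecting these values, and neither labels nor headers name it. For Fmr1 the solved mature level at 60 min was 3.20 in the knockout against 10.3 in wild type.

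Changes of the deposited degradation rate tracked the solved level. The log2 change of the mature level ranged from -0.67 in Rbm10 to 0.22 in Snrpb, with a median of -0.05 over the 75 genes. All 11 genes called higher had a lower mature level in the knockout, by -0.67 to -0.11, and both called lower had a higher one, 0.16 and 0.17. Level and degradation changes had opposite signs in 65 of the 75, with a Spearman rho of -0.876 (-0.918 over 5716 genes). Both come from the same rates, so this is a description with no p-value. Each level is 1 estimate per genotype. Its error is unknown, and the p-values of the degradation calls leave it out.

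Knockout degradation rates were therefore also taken as synthesis rate over the solved mature level, as holds in wild type. By limma 0 of 75 genes were then called (0% of 5704 genes), with 0 of 75 and 100 of all genes below 0.05 unadjusted. Blocking by labelling time also called 0, with 6 and 529 below 0.05 unadjusted. On the same 5704 genes the deposited rates called 23.2%, 20.6% higher and 2.61% lower. The median change of the 75 became 0.18 (0.06 over all genes). Rbm10 then had 0.167 and 0.0554 in the knockout against 0.105 and 0.0384 in wild type, a log2 change of 0.60. For Dhx40 the knockout values became 0.140 and 0.183 (1.16), and for Snrpc 0.0431 and 0.0690 (-0.09), which overlap the wild-type values. These rates vary between labelling times as the synthesis rates do, so a missed threshold does not show equal degradation.

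**Figure D3:**
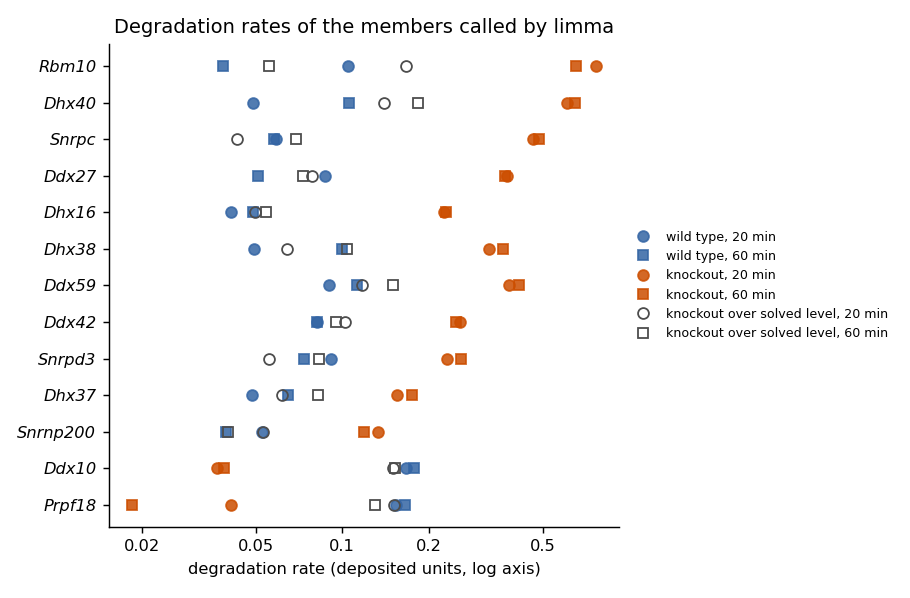
Degradation rate (deposited units, log axis) of the 13 called genes: filled symbols are the deposited wild-type (blue) and knockout (orange) values at 20 min (circles) and 60 min (squares), open symbols the knockout synthesis rate over the solved mature level. Filled orange symbols lie apart from blue ones in all 13 genes, as in Rbm10 (0.769 and 0.656 against 0.105 and 0.0384), while open symbols overlap the blue ones or lie nearer to them. The genes were chosen by their calls, so the separation of filled symbols adds no support.

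**Figure D4:**
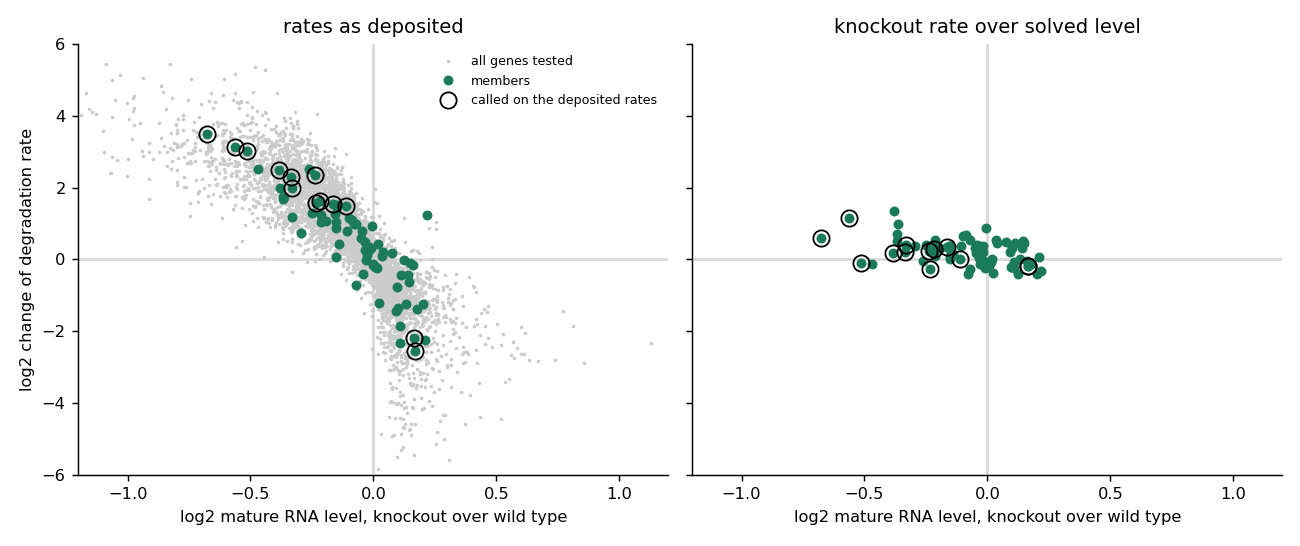
Log2 change of the degradation rate against the log2 change of the solved mature RNA level, knockout over wild type; grey dots are all 5716 genes tested (45 lie outside the axes), green dots the 75 splicing and helicase genes, and rings those called on the deposited rates. Spearman rho over the green dots, -0.876 with the deposited rates (left), was -0.382 when the knockout rate was taken over the solved level (right).

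Genes with a knockout rate at 1 labelling time could not be tested. Of the genes with both wild-type rates, 6 had a knockout degradation rate at 20 min only: Srsf1, Srsf11, Hnrnph1, Hnrnpm, Rbm17 and Rbm26. In all 6 the solved mature level was higher in the knockout, by 0.09 to 0.38 log2 units, as it was in 406 of 423 such genes over the table. Ddx19b had a knockout rate at 60 min only, with a level change of 0.23, and 222 of 229 such genes over the table were higher. By the relation above, a large rise of level can take a knockout rate to 0 or below. Selecting genes with a missing rate may therefore itself favour a higher level. Srsf1, a founding SR protein, had the largest rise of level, 0.38. Its deposited knockout degradation rate was 0.00672 at 20 min, against 0.278 and 0.115 in wild type, and none was listed at 60 min. That knockout value carries the level term, so it is not on the same footing as the wild-type rates. At 20 min its synthesis rate was 4.11 in the knockout and 4.21 in wild type, and its mature level 19.7 and 15.2. Among the 75 genes with all 4 rates the level was higher in 26. Mature levels of the 28 genes without a knockout degradation rate were not solved.

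Processing rates as deposited leaned lower in the knockout without a call, a direction that centring reversed. Of the 68 genes tested 0 were called by limma (0% of 5082 genes), and 14 (20.6%) fell below 0.05 unadjusted, against 783 (15.4%) of all genes. Their median log2 change was -0.27 (-0.19 at 20 min and -0.39 at 60 min), and -0.36 over all genes; 48 of the 68 were negative. Leaving out 1 library moved this median: dropping the knockout at 60 min gave -0.065 and at 20 min -0.44, and dropping wild type at 20 min gave -0.13 and at 60 min -0.41. Blocking by labelling time called 21, 8 higher and 13 lower, against a background of 25.6% (6.26% higher and 19.3% lower). Taking out a shift of -0.35 log2 units by centring moved the median of the 68 to 0.07. Blocking together with centring called 13, 8 higher and 5 lower, against 13.5% (7.14% higher and 6.4% lower). For U2af1, wild-type processing rates were 5.45 and 2.62 and knockout rates 0.876 and 0.499 (log2 change -2.52, SE 0.57, limma adjusted p = 0.156, and 0.00856 with the block). Prpf19 had 18.3 and 10.9 against 4.74 and 2.95, a change of -1.92 (adjusted p = 0.0109 with the block). In both genes the knockout values lay below both wild-type values, as in 22 of the 68 and 35.1% of all genes tested. The 2 processing rates of a genotype rest on 1 pre-mRNA level. P-values for processing, and the lack of overlap, leave out the error of that level.

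Higher processing rates in the blocked limma fit were seen in Snrpb, Srsf7 and Sf3b1, among others. Snrpb went from 0.0879 and 0.114 to 0.518 and 0.543 (log2 change 2.40, SE 0.41, limma adjusted p = 0.109, and 0.00949 with the block). Taken over the solved pre-mRNA level its knockout values were 0.118 and 0.144, a change of 0.38. Srsf7 had 1.76 and 1.56 against 4.62 and 2.99, a change of 1.16 (limma adjusted p = 0.0332 with the block), and 1.03 over the solved level (0.0534). Sf3b1 had 4.504 and 2.83 against 8.58 and 6.16, a change of 1.03 (limma adjusted p = 0.0376 with the block), and 0.95 over the solved level (0.0504). Over the solved level 9 of the 68 were called in the blocked fit, 2 higher and 7 lower, against a background of 15.5% (3.61% and 11.9%). Without the block 0 were called, with 7 of the 68 and 598 of all genes below 0.05 unadjusted. U2af1 (-1.59), Prpf19 (-1.66), Sf3a1 (-1.23) and Sf3a2 (-1.67) were among the 7.

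Solved pre-mRNA levels fell on steps. The knockout over wild-type ratio of the pre-mRNA level had a most common value of 0.796, shared by 358 of 5636 genes. In units of that value, 60 of the 76 genes with a ratio (78.9%) lay within 1e-05 (relative) of a ratio of whole numbers up to 20, as did 63.2% of all genes; with whole numbers up to 5 the counts were 33 of 76 (43.4%) and 30.4%. U2af1 and Snrpc stood at 3 to 1, Sf3a2 and Dhx37 at 4 to 1, Prpf19 at 9 to 2 and Sf3a1 at 14 to 5. No read counts were used, and the counts behind these ratios are not known, and the whole numbers may stand for multiples. Snrpb and Sf3b4, with the largest pre-mRNA levels, had no such ratio.

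**Figure D5:**
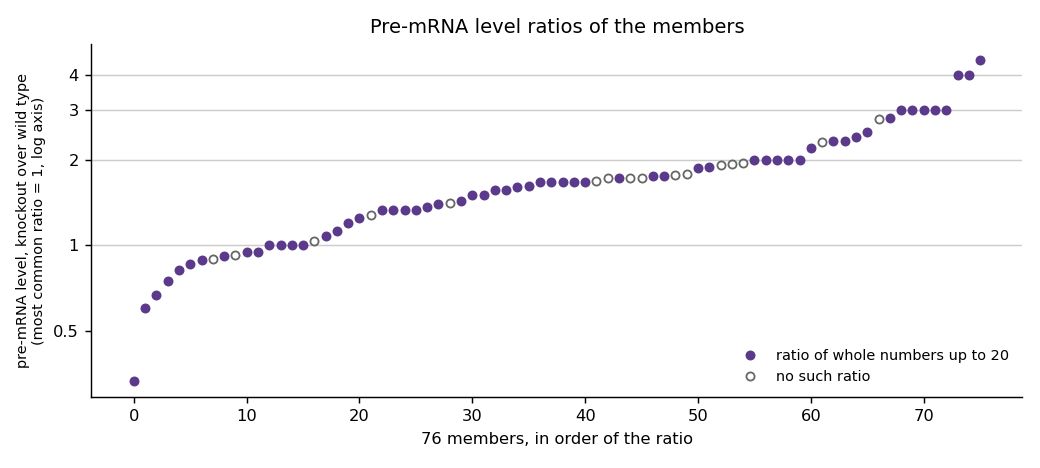
Ratio of the solved pre-mRNA level, knockout over wild type, in units of the most common ratio over all genes (0.796), on a log axis, for 76 splicing and helicase genes in order. Filled points (60 of 76) lie within 1e-05 of a ratio of whole numbers up to 20; flat runs at 1, 2, 3 and 4 hold 4, 5, 5 and 2 genes.

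Splicing genes outside the naming rule gave calls on the deposited degradation rates that also depended on the block. Of 86 listed, such as Sfpq, Nova1, Rbfox1 and Srrm4, 68 were in the table and 38 had all 4 rates. For degradation 3 of the 38 (7.89%, against 23.1% of all genes) were called by limma, and 12 in the blocked fit (against 48%). The 3 were higher: Srrm4, a neuronal microexon regulator, at 2.18, Lsm6 at 2.01 and Usp39 at 1.55. The median change was 0.46, and 0.13 over the solved level. For synthesis 0 of 38 were called, with a median of 0.07, and for processing 0, with a median of -0.37 (10 in the blocked fit, against 25.6% of all genes). The difference from the 13 of 75 above was not tested.

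Within the 75 genes, the deposited degradation change rose with the GC content of the transcript, with Spearman rho of 0.461, against 0.312 over 5555 genes with a model. Among the called genes, Dhx16 (57.9% GC), Dhx38 (56.9%), Snrpc (56.2%) and Rbm10 (56.1%) were the highest with Dhx37 (56.5%) and Ddx27 (54.9%). Snrnp200 (51.0%), Ddx59 (50.2%), Snrpd3 (47.7%), Ddx42 (47.5%) and Dhx40 (43.2%) were also called higher. The falls were in Ddx10 (42.8%) and Prpf18 (44.3%). The part of GC content in the change was not tested.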

How the data were processed

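The rate columns name 4 labelled libraries. Input libraries and unlabelled pulldowns of both genotypes were also part of the study, and no rate column names them. Labelled fly and unlabelled yeast RNA were added at 10% by weight each, per the labels' protocols. The submitters' processing notes name cutadapt, Bowtie2, TopHat2, HISAT2 and limma and the builds mm10, dm6 and sacCer3, with no versions or roles. The authors deposited synthesis, processing and degradation rates as linear signal values. They also deposited a limma table per rate with log2 changes and mean log2 rates, p-values with adjusted p-values, and score columns not used here, per the file headers. Of the columns with values per sample, 0 went unused.

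Here, rates above 0 in all 4 libraries were compared on a log2 scale without a pseudocount by limma 3.58.1 in R 4.3.3 (lmFit, eBayes without trend, two-sided, Benjamini-Hochberg over all genes tested, threshold 0.05). The procedure was tested on simulated data. The members, lists and naming rule were chosen with earlier results of these data known. Named genes were called members (all 4 values for at most 8 in each direction), family extremes in wild type, and a fixed list; other names, such as Ddx20, Dhx34, Hnrnpa3, Rbm26 and Snrpd2, were chosen after their values were seen. Labelling times pair libraries across genotypes, per the labels: Spearman rho between wild type and knockout of the 20 minus 60 min difference was 0.735 for synthesis, 0.735 for processing and 0.652 for degradation. Counts from the blocked fit stand beside those it changes for all the genes, Ddx and Dhx, SR, hnRNP, SF3 and U2af genes and the other splicing genes. For the snRNP, Prpf and Rbm families, degradation calls went from 3 to 5 of 9, 1 to 5 of 9 and 1 to 8 of 13, against 23.1% and 48% of all genes. Alternatives were centring, quantile normalization, a filter at the 25th percentile, a pseudocount at the 10th, a threshold of 0.01, the authors' tables, leaving out each library, and, chosen after seeing the data, solved levels. Gene models were GENCODE M21 on GRCm38, for 122 of 122 genes, and promoters RefSeq.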

Additional observations from a re-analysis of the deposited data

Results flagged for a closer look

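The median log2 change of the synthesis rate over the 76 splicing and helicase genes was 0.11 at 20 min and -0.015 at 60 min. It stands out because the 2 labelling times, each with 1 library per genotype, moved in opposite directions; the difference between the labelling times was not tested. Over all genes the medians were 0.04 and -0.08.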

How the results depend on the processing

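No called gene changed sign under the alternatives other than solved levels, where Snrpd3 became -0.27 and Snrpc -0.093, with and without a replicate block; the cause was not tested beyond that construction. Of the 13 degradation calls, all were kept with the replicate block (39 called), with the pseudocount (23) and in the authors' deposited table (25 of 82 tested), 10 without the lowest 25% of rates (18 called of 60; the filter removed Prpf18, Ddx10 and Snrnp200), 9 with block and centring (22), 3 after quantile normalization (5), 1 after centring (1), and 0 at a threshold of 0.01 (0, as for 0% of all 5716 genes) or over solved levels (0, with or without the block). The cause of these differences was not tested. The median degradation change of 0.48 became -0.38 with centring (also with the block), -0.21 with quantile normalization, 0.83 without the lowest 25% and 0.18 over solved levels; leaving out 1 library gave 0.46 to 0.63. Processing calls rose from 0 to 21 with the replicate block, 13 with block and centring, and 9 with the block over solved levels, and stayed at 0 otherwise, with 5 to 16 of the genes below 0.05 unadjusted. The median processing change of -0.27 became 0.075 with centring (also with the block), 0.071 with quantile normalization and -0.15 over solved levels (with and without the block), and ranged from -0.44 to -0.065 leaving out 1 library. Synthesis calls stayed at 0, and the median of 0.06 ranged from 0.054 to 0.20 leaving out 1 library. The log2 changes of Rbm10, Dhx38, Dhx40 and Prpf18 moved by more than their limma SE when a library was left out, without a change of sign. With 2 libraries per genotype and no counts, the precision of a single rate is unknown.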
